A study of Mus musculus with 4 samples.

Results

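The genes described here are the ligands and receptors of the 4 large families that steer growing axons: semaphorins with plexins and neuropilins, ephrins with Eph receptors, Slits with Robos, and netrins with Dcc and the Unc5 receptors. With earlier results of these data known, the members were chosen by gene symbol. They numbered 69 of the 19465 genes in the deposited counts, with 20 semaphorins, 9 plexins, 2 neuropilins, 14 Eph receptors (9 EphA and 5 EphB), 8 ephrins (5 ephrin-A and 3 ephrin-B), 3 Slits, 4 Robos, 4 netrins, and 5 receptors made up by Dcc and the Unc5 genes. The series measured coronal brain sections of 4 mice with Visium CytAssist, in which gene probes on formalin-fixed tissue are captured by a grid of barcoded spots. There were 2 wild-type mice and 2 mice heterozygous for Celsr3, which encodes a large cadherin-like receptor needed for axon tracts of the forebrain. The animals had no treatment, the brains had been trimmed so that the striatum was in the section, and strain, age and sex are not given in the labels. The spots fell into 4 barcode sets by the ending of the barcode, and this ending matched no sample name, genotype or replicate number. Therefore 0 sets were tied to a mouse, no genotypes were compared, and every value is given by set, with no p-value, no SD and no mean over the sets.

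Semaphorins are secreted or membrane-bound ligands read by plexins, and the secreted class 3 semaphorins mostly need a neuropilin as co-receptor. Ephrins are held at the cell surface, A-type by a lipid anchor and B-type by a membrane span, and bind Eph receptor tyrosine kinases. Slits are secreted and act mainly as repellents through Robo receptors, while netrins attract axons through Dcc and repel them through the Unc5 family. In the forebrain these systems lay out the paths of cortical, striatal and thalamic axons during development, and many of the genes stay active in adult neurons and glia.

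Sets 1 to 4 held 3055, 2808, 3445 and 3294 spots and 174761560, 109663162, 165185177 and 90752475 counts. Barcodes were shared between the sets, with 1613 of the 4744 distinct ones present in each set, and a barcode occurred once at most in a set. Levels are counts per 1000000 (CPM) over the summed counts of a set or an area. A probe assay gives no common scale for different genes, so levels are compared for the same gene only, and closely related genes may share probe signal. All intervals are at 95% and hold only the error of counting.

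Spots were put into areas by lists of marker genes that hold none of the 69 members, which gave an area to 10577 of 12601 spots. Of 15 areas, 11 had at least 30 spots in every set: striatal, layer 2/3, layer 4, Fezf2 (from a layer 5 list), Rprm (from a layer 6 list), layer 6b and claustrum, cholinergic, hypothalamic, white matter, Ccdc153 (from a list for the lining of the ventricles) and meningeal. Among these, an area is called by a gene where fewer than 3 of its markers were among its 10 leading genes, as in 3 of them. The words highest and lowest refer to these 11 areas unless another area is named. The summed level of the 14 striatal markers was 13.2 to 17.7 times as high in striatal spots as in the other spots. A spot can hold several cells, and fewer cells of a type cannot be told apart from less RNA per cell. A member is called higher in an area where its CPM there was at least 2 times that in all other spots of the same set, in every set, and lower where it was at most 0.5 times. The other spots differ between sets, since for example thalamic spots numbered 153, 0, 2 and 292. Where the values of an area are said to lie apart from those elsewhere, the member was already called. Such a gap is thus no further support, and the share of all genes with it was not counted.

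All 69 members had a mean of at least 1 CPM, the level above which genes were compared. Of these, 26 were higher in at least 1 area, where 23.7% of the 13773 genes compared were, and 39 were lower in at least 1 area, where 20% were. That is 37.7% and 56.5% of the members. In all 48 members, or 69.6%, were called in 1 direction or the other, against 31.6% of genes, and 21 members were called in none of the areas. The calls made 99 pairs of a member and an area, 30 higher and 69 lower. Scaling by TMM in place of total counts moved the median log2 ratio of all genes by 0.14 in striatal spots and by -0.28 in Ccdc153 spots, and calls that such a scaling ended are named beside them.

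**Figure D1:**
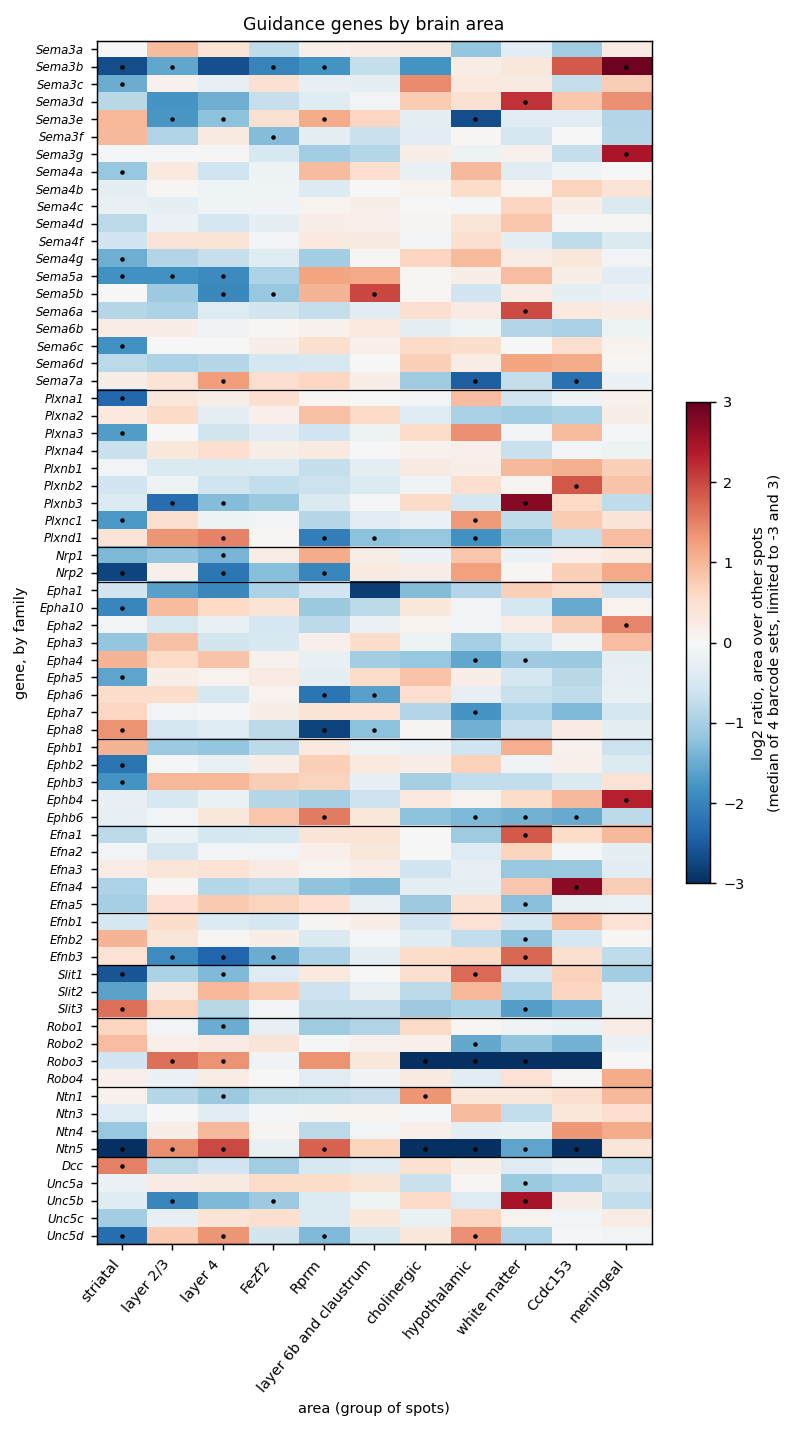
Level of each of the 69 genes in 11 areas against all other spots, as the log2 ratio of CPM (median of the 4 barcode sets, colours limited to -3 and 3); rows are genes by family, and a black dot marks a call in every set. Dots are most numerous in the striatal column, with 17 lower and 3 higher.

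In striatal spots more of the guidance genes were low than high. The median ratio of striatal to other spots was 0.699 for the members and 0.915 for all genes. 17 members were lower, or 24.6% of them, where 8.69% of genes were, and 3 were higher, where 2.93% of genes were. The 3 were Dcc, the receptor through which netrin attracts axons, Slit3, a secreted Slit, and Epha8, an Eph receptor. Dcc was at 78.5, 48.4, 71.6 and 54.5 CPM in the striatal spots of sets 1 to 4 and at 27.4, 19.2, 25.4 and 18.2 CPM in the other spots. The lowest striatal value lay above the highest value elsewhere. Its ratio was 2.52 to 2.99, and in set 2, where it was smallest, the interval ran from 2.33 to 2.72. Slit3 was at 114, 170.1, 109 and 119 CPM in striatal spots and at 34, 48.5, 37.1 and 41.2 CPM in the others, with ratios of 2.89 to 3.51. Set 2 was the highest on both sides. Epha8 was at 23.6, 24.7, 19.2 and 39.6 CPM against 8.32, 11.1, 5.9 and 19 CPM, with ratios of 2.08 to 3.24. Its striatal level in set 3 was close to its level outside the striatum in set 4, so the ranges over sets were barely apart. Epha8 was not called in striatal spots when areas came from Leiden clusters or when marker scores were scaled to a like spread.

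Members close to the limit in striatal spots included Epha4, an Eph receptor that binds ephrins of both classes, with ratios of 1.91 to 2.31. Efnb2 (ephrin-B2) had ratios of 1.51 to 2.48 and Sema3e ratios of 1.79 to 2.22. Sema3f, the class 3 semaphorin that acts through neuropilin 2, had ratios of 1.78 to 2.01, and the Slit receptor Robo2 1.67 to 1.99. Each was above 1 in all 4 sets and below 2 in at least 1, so none was called. For Efnb2, Sema3f and Robo2, all 4 sets had their highest level of the 11 areas in striatal spots. Outside the 11 areas, Sema3f was higher still in choroid plexus spots, which only sets 1 and 3 held in number. It was at 47.4 to 56.2 CPM there, with ratios of 3.31 to 3.41.

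The 17 members that were low in striatal spots came from most families. They were 6 semaphorins (Sema3b, Sema3c, Sema4a, Sema4g, Sema5a, Sema6c), 3 plexins (Plxna1, Plxna3, Plxnc1), Nrp2, the EphA receptors Epha5 and Epha10, the EphB receptors Ephb2 and Ephb3, Slit1, Ntn5 and Unc5d. Slit1 was at 12.2, 19.6, 17.3 and 16.7 CPM in striatal spots and 91.7, 88.6, 113 and 91.4 CPM elsewhere. The Slits thus stood on opposite sides in the striatum, Slit1 low and Slit3 high in every set. Nrp2, the co-receptor for Sema3f, was at 5.66, 8.42, 8.35 and 10.3 CPM against 37.6, 58.2, 70.3 and 54.5 CPM. It was not called there with areas from Leiden clusters. Plxna1, a receptor for class 3 semaphorins together with neuropilins, was at 11.9, 8.5, 9.93 and 9.3 CPM against 56.5, 46.1, 47.9 and 52.9 CPM. Plxna3 was at 6.32, 4.66, 8.54 and 5.74 CPM against 24.1, 14.5, 26.7 and 18.6 CPM. For both plexins the 4 striatal values lay below all 4 values elsewhere. Plxnc1, the receptor for Sema7a, was at 15.3, 13, 12.6 and 19 CPM against 40.0, 43.3, 41.7 and 68.3 CPM.

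Among the striatal lows, Unc5d, a netrin receptor of the repulsive kind, was at 10.3, 5.57, 10.1 and 10.9 CPM against 43.6, 38.1, 55.2 and 37.1 CPM. The netrin receptors therefore also split there, with Dcc high and Unc5d low in every set. Epha5 was at 30.7, 24.3, 34.4 and 22.5 CPM against 95.6, 68, 110.2 and 64.4 CPM. Epha10, a family member without kinase activity, was at 12.4, 9.93, 7.91 and 23 CPM against 41.7, 52, 36.4 and 50.9 CPM. Ephb3 was at 9.83, 5.96, 8.23 and 5.64 CPM against 26.2, 22, 29.1 and 19.4 CPM. The striatal and the other values of these receptors did not overlap, and the call of Epha10 ended with RLE scaling. Ephb2 rested on 36, 23, 22 and 4 striatal counts, 1.25, 0.993, 0.683 and 0.396 CPM, against 4.75, 2.97, 3.9 and 3.53 CPM.

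The semaphorins low in striatal spots are secreted (Sema3b, Sema3c) or held in the membrane (Sema4a, Sema4g, Sema5a, Sema6c). Sema3c was at 6.39, 7.73, 7.42 and 8.51 CPM in striatal spots against 26.8, 22, 20.5 and 23.8 CPM. Sema4a was at 20.2, 18.7, 16.9 and 31.3 CPM against 42.6, 64.2, 37.7 and 68.2 CPM. Sema4g was at 10.8, 11.9, 11.7 and 12.4 CPM against 30.9, 31.4, 29.2 and 46.6 CPM. In each of these the ranges over sets were apart, and Sema4a, the nearest to the limit, was not called with TMM or RLE scaling or with counts thinned to the smallest library. Sema5a was at 17.8, 12.1, 13 and 11.5 CPM against 65.5, 40.7, 48.1 and 37.1 CPM. Sema6c was at 6.6, 7.43, 7.26 and 11.1 CPM against 24, 30.6, 24.7 and 36.1 CPM. Their striatal values all lay below their values elsewhere.

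**Figure D2:**
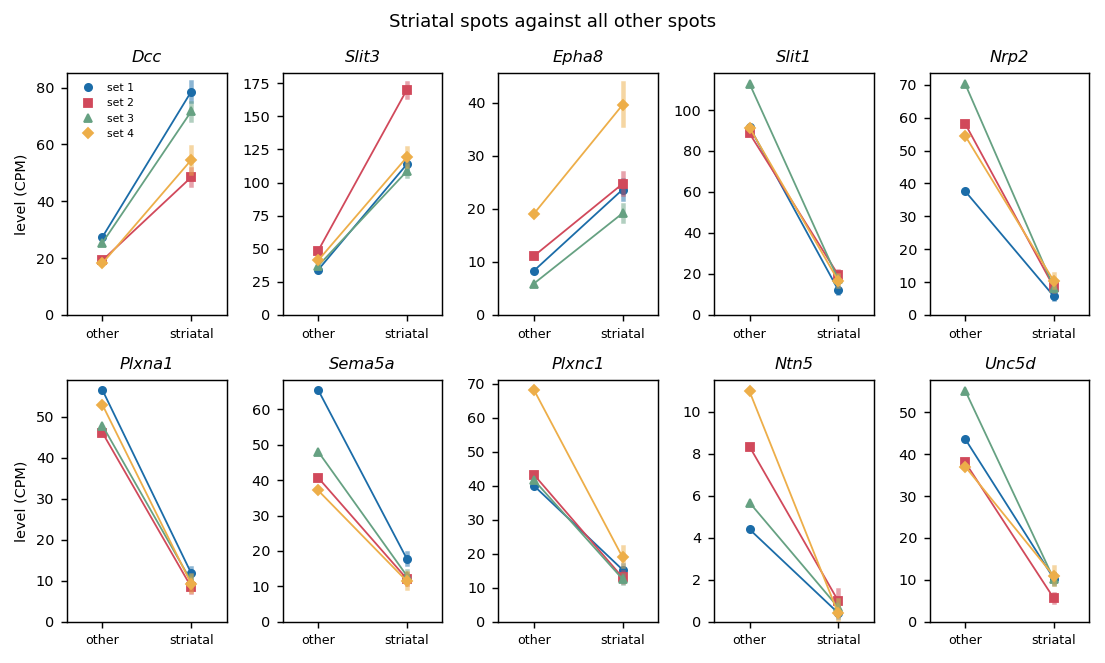
Level in CPM of 10 genes in striatal spots and in all other spots of the same barcode set; each line joins the values of 1 set, and thick bars at the striatal points are 95% intervals for counting error. Dcc, Slit3 and Epha8 are higher in striatal spots in all 4 sets, and the other genes, a selection of the 17 lower ones made after their values were seen, are lower.

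White matter spots held the largest group of higher members. 6 of 69 were higher, or 8.7%, where 3.97% of genes were, and 8 were lower, where 3.01% of genes were. These spots were defined by oligodendrocyte markers, whose summed level was 6.73 to 9.70 times that of the other spots. Astrocyte markers were at 1.13 to 1.43 times and microglia markers at 1.77 to 2.07 times the level elsewhere, and the part of these cells in the results was not tested. Plxnb3, a plexin, was at 154, 169, 176 and 130.1 CPM in white matter and 25.9, 19.6, 24 and 24.1 CPM elsewhere, with ratios of 5.4 to 8.64. Unc5b, a receptor for netrins, was at 130.2, 173, 93.3 and 146 CPM against 23, 21.7, 17.4 and 28.4 CPM, with ratios of 5.13 to 8.0. Both had at least 5 times their other level in every set. Efnb3 (ephrin-B3), a midline ligand of Epha4, was at 504, 856, 649 and 813 CPM against 151, 222, 199 and 259 CPM. Sema6a, a membrane semaphorin read by Plxna2 and Plxna4, was at 175, 158, 189 and 122 CPM against 46.6, 36.1, 47.6 and 45.6 CPM. For these 4 genes every white matter value lay above every value elsewhere. Sema3d was at 37.9, 14.8, 16.5 and 10.6 CPM against 7.71, 2.85, 3.99 and 2.85 CPM, set 1 standing above the others on both sides. Efna1 (ephrin-A1) was at 22.5, 19, 15.3 and 17.5 CPM against 5.89, 4.45, 5.17 and 5.17 CPM, with ratios of 2.96 to 4.26.

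The promoters of the white matter genes were looked at for a short motif, ACAANG, read on both strands, a loose form of the core that SOX factors bind. SOX10 directs myelin genes in oligodendrocytes. The sequences are RefSeq entries on GRCm38.p6 that run from 250 bases before to 50 bases after the gene's start, and 59 of the 69 members had one. The motif occurred in 13550 of 32851 promoters of this length, or 41.2%, and in 26 of 75 promoters of members, or 34.7%. Of the 6 members high in white matter, 4 had a promoter entry, with 5 promoters between them, of which 3 held the motif. They are shown because their genes had the ratios just given, with the matches in capitals. The Sema3d promoter (chr5:12382916-12383215, plus strand) has 2 matches, that of Unc5b (chr10:60831532-60831831, minus strand) has 1, and that of Plxnb3 (chrX:73756853-73757152, plus strand) has 3. The 2 promoters of Efna1 have 0.
Sema3d: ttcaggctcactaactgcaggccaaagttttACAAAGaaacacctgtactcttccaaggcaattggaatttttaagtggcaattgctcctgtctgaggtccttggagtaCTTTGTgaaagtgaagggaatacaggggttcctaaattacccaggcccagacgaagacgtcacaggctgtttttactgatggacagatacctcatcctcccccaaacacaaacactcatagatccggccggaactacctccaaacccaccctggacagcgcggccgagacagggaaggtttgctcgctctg
Unc5b: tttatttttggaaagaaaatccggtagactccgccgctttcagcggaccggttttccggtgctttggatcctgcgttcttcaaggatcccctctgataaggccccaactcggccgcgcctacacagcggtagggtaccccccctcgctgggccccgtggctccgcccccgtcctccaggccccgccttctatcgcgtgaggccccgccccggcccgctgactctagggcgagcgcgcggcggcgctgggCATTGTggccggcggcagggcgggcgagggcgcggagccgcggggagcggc
Plxnb3: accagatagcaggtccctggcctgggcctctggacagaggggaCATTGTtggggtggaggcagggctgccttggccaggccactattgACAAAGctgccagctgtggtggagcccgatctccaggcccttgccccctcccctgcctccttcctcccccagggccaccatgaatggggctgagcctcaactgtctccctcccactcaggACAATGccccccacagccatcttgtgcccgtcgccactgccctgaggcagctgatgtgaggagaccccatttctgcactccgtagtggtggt
A match of these letters is a description of the sequence and not a binding site, and with a motif this common the counts set no gene apart.

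**Figure D3:**
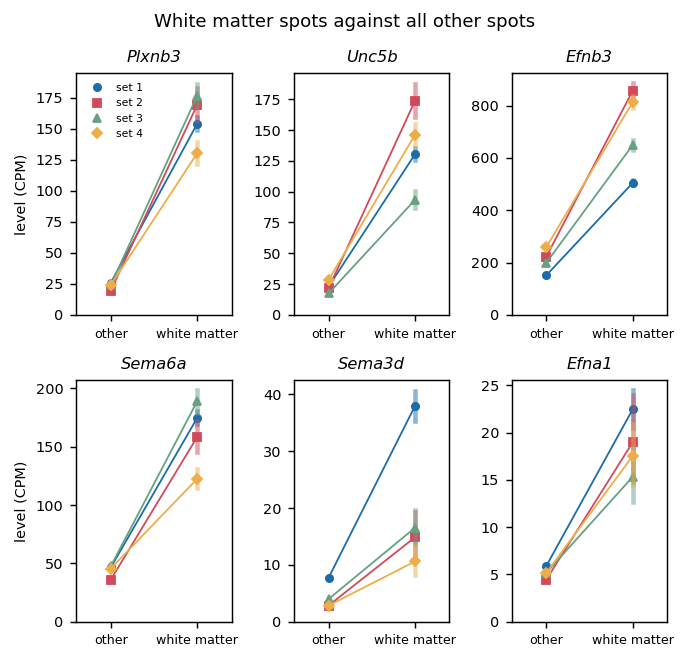
Level in CPM of the 6 guidance genes called higher in white matter spots, beside their level in all other spots of the same barcode set; lines join the values of 1 set and thick bars are 95% intervals for counting error. All lines run upward to white matter, and Sema3d is highest in set 1.

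The 8 members low in white matter were Epha4, Ephb6, Efna5, Efnb2, Slit3, Robo3, Ntn5 and Unc5a. Slit3 was at 13.6, 23.9, 20.1 and 17.1 CPM there against 51.8, 75.9, 52.5 and 52.5 CPM. Epha4 was at 103, 108, 106 and 78 CPM against 217, 239, 231 and 163 CPM. In white matter spots Efnb3 was thus called higher and its receptor Epha4 lower. Striatal spots had both above their whole-section levels in every set. There Efnb3 was at 236, 307, 291 and 382 CPM, against 194, 243, 219 and 300 CPM over whole sections. Epha4 was at 367, 377, 366 and 316 CPM there, against 203, 235, 225 and 156 CPM over whole sections. Efna5 (ephrin-A5) was at 22, 38.2, 34 and 34.3 CPM against 65.7, 90.7, 81.8 and 81.7 CPM. Efnb2 was at 17.2, 36.8, 34.2 and 25.9 CPM against 49.4, 77.1, 70.2 and 66.9 CPM. Unc5a was at 45.1, 58.8, 46.4 and 60.2 CPM against 95.1, 134, 103 and 128 CPM, opposite in direction to Unc5b in every set. The calls of Epha4, Ephb6, Efna5, Efnb2 and Unc5a ended when marker scores were standardised within each set, and that of Ntn5, at 0.987, 2.47, 2.4 and 3.24 CPM, with areas from Leiden clusters.

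Among the semaphorins, Sema3e, which acts on Plxnd1 without needing a neuropilin, was highest in Rprm spots. In Rprm spots it was at 91.4, 50.6, 55 and 53 CPM against 34.2, 24.1, 25.7 and 24.1 CPM. In Rprm spots 3 members were higher, where 1.1% of genes were, and 6 were lower, where 5.26% were. Sema3e was low in layer 2/3 at 11.3, 9.0, 7.68 and 9.32 CPM, in layer 4 at 16.6, 11.5, 12.5 and 12.2 CPM and in hypothalamic spots at 6.1, 4.59, 3.8 and 5.25 CPM. The hypothalamic level was the lowest of these areas in every set. The layer 4 call ended with TMM and RLE scaling. Plxnd1, its receptor, was highest in layer 4 and lowest in Rprm spots in every set, with uncalled ratios of 1.99 to 2.82 in layer 2/3 and 0.988 to 1.2 in Fezf2 spots. In layer 4 spots Plxnd1 was at 118, 207, 129 and 191 CPM against 39.4, 96.7, 44.4 and 70.9 CPM. In Rprm spots it was at 12.9, 16.1, 10.9 and 22.8 CPM, with ratios of 0.146 to 0.278, and in hypothalamic spots at 18.4, 19.8, 14 and 25.6 CPM. Striatal spots differed from both, with ratios above 1 in all 4 sets for Sema3e and values of 52.6, 131, 51.2 and 124 CPM for Plxnd1. Plxnd1 was also called lower in layer 6b and claustrum, at 19.2, 36, 23.3 and 34.6 CPM, and this call turned its direction with areas from Leiden clusters, to a median log2 ratio of 1.05.

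Sema7a, a lipid-anchored semaphorin, was highest in layer 4, where it was at 375, 264, 305 and 291 CPM against 145, 124, 137 and 112 CPM elsewhere. Layer 4 had 5 higher members, or 7.25%, where 1.4% of genes were higher, and 10 lower ones, where 5.87% were. In hypothalamic spots Sema7a was at 35.9, 22.3, 23.1 and 26.3 CPM, with ratios of 0.144 to 0.216. Its receptor Plxnc1 was highest in those hypothalamic spots, at 92.6, 77.6, 83.6 and 123 CPM against 32.3, 34.1, 32.8 and 57.4 CPM. The ligand and the receptor thus had their highest levels in different areas in all 4 sets. In Ccdc153 spots Sema7a was at 42.2, 21.8, 20.5 and 39 CPM. The hypothalamic spots held 3 higher members, where 2.64% of genes were higher, and 9 lower ones, where 4.13% were.

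Sema5b was the only member higher in layer 6b and claustrum, where 0.646% of genes were higher, and 3 members were lower, where 2.37% of genes were. It was at 42.3, 59.2, 31.4 and 71.4 CPM there against 10.4, 17.5, 7.25 and 18.1 CPM, and the call held at a 3-fold limit in every set. Its level was 4.02, 5.22, 1.41 and 5.92 CPM in layer 4 and 6.09, 8.79, 4.08 and 9.91 CPM in Fezf2 spots, the latter call ending with TMM and RLE scaling. In Rprm spots Sema5b had ratios of 1.99 to 2.11, just short of a call. Sema5a, a relative in sequence, was low in the upper cortex, at 16.7, 14.5, 12.2 and 9.67 CPM in layer 2/3 and 16, 9.6, 10.5 and 11.1 CPM in layer 4. Its ratios were 1.78 to 2.62 in layer 6b and claustrum and 1.86 to 3.6 in Rprm spots, both uncalled. Fezf2 spots had 0 higher members, where 0.436% of genes were higher, and 5 lower ones, where 4.2% were. Sema3f was lower there, at 6.45, 8.02, 7.8 and 10.1 CPM against 16.2, 24.4, 18.9 and 22.6 CPM, until TMM or RLE scaling was used. Nrp1 was low in layer 4 at 7.44, 8.26, 4.88 and 9.87 CPM against 17.5, 24.4, 16.6 and 19.8 CPM, a call that TMM and RLE scaling also ended. Nrp2 was low in layer 4 at 8.65, 9.44, 8.13 and 15.4 CPM and in Rprm spots at 8.6, 13.5, 7.16 and 15.2 CPM. Nrp1 had ratios of 1.63 to 2.28 in Rprm spots, which were not called. Both neuropilins, the co-receptors of class 3 semaphorins, were thus low in layer 4 in every set. Plxnb3 was low in the upper cortex, at 8.5, 5.52, 6.81 and 9.32 CPM in layer 2/3 and 10.8, 12, 11 and 16.2 CPM in layer 4, where the call ended with a wider margin between marker scores and with TMM and RLE scaling. In layer 2/3, 2 members were higher, where 1.04% of genes were, and 6 were lower, where 4.49% were.

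Of 9 EphA receptors, 2 were higher and 6 lower in some area, and of 5 EphB receptors 2 and 3. These small counts are to be read against 23.7% of all genes higher and 20% lower in some area. Ephb6, a receptor without kinase activity, was highest in Rprm spots at 305, 229, 293 and 214 CPM against 92.3, 81.9, 100.4 and 71.2 CPM. It was low in hypothalamic spots at 49.7, 33, 42.9 and 37.6 CPM, in white matter at 36.6, 33.8, 54 and 32.7 CPM and in Ccdc153 spots at 35.3, 33.9, 40.0 and 35.3 CPM. In the same Rprm spots Epha8 was at 1.04, 2.56, 2.04 and 2.71 CPM against 11.7, 14.9, 9.05 and 22.5 CPM, with ratios of 0.0888 to 0.225. Epha6 was at 15.3, 7.58, 16.6 and 12.1 CPM against 67.5, 39.9, 79.1 and 32.7 CPM. Rprm spots therefore combined the highest Ephb6 with low Epha6 and Epha8 in all sets. In layer 6b and claustrum Epha8 was at 4.62, 6.18, 3.94 and 6.91 CPM and Epha6 at 24.2, 11.7, 25.8 and 10.1 CPM. The Epha8 call there ended with a wider margin between marker scores. The Epha6 call there ended when marker scores were scaled to a like spread. With areas from Leiden clusters it turned, to a median log2 ratio of 0.78. In hypothalamic spots Epha4 was at 84.3, 91.3, 42.2 and 51 CPM against 211, 245, 237 and 166 CPM and Epha7 at 36.4, 13.1, 28.8 and 16.4 CPM against 92.5, 64.6, 110.2 and 49.9 CPM.

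Efnb3 was low across the upper cortex, where it was at 34.4, 89.4, 56.6 and 93.6 CPM in layer 2/3 and at 34.8, 49.4, 45.3 and 75.9 CPM in layer 4. In Fezf2 spots it was at 67.3, 83.3, 89.7 and 129 CPM. Over the 11 areas, the rank correlation (Spearman) of Efnb3 with Epha4 was -0.65, -0.69, -0.70 and -0.78 in sets 1 to 4. This pair was one of 15 of a ligand and a receptor that were chosen after values were seen, and areas of a set share its library. Sema6a and Plxna2 had correlations of -0.84 to -0.49, and Slit1 and Robo2 of -0.69 to -0.55. Slit3 and Robo2 had 0.48 to 0.77, the highest range among the 15 pairs, and Ntn1 and Dcc 0.11 to 0.53. Sema3e and Plxnd1, with their highest levels in Rprm spots and layer 4, had -0.36 to -0.15. Sema7a and Plxnc1 had -0.48 to -0.35.

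**Figure D4:**
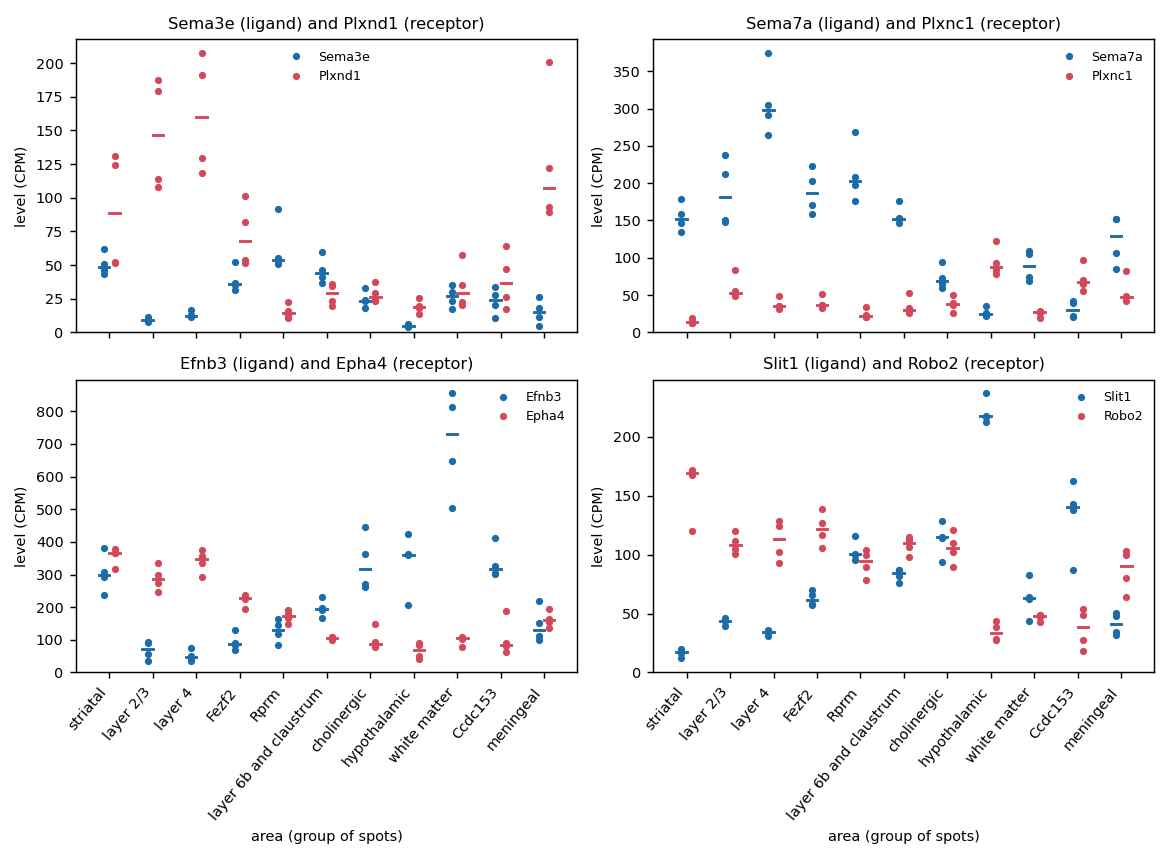
Level in CPM of 4 ligands (blue) and a receptor of each (red) in 11 areas. Each point is 1 barcode set and bars are the median of the 4 sets. The 4 pairs were chosen after values were seen, and each had a negative rank correlation over the areas in every set. Other pairs compared, namely Sema4d with Plxnb1, Slit3 with Robo2, and Ntn1 with Dcc and with Unc5b, had positive ones in every set. Levels of different genes share no scale, so only the order of areas can be compared: Sema3e and Plxnd1 peak in different cortical layers, Sema7a and Plxnc1 in layer 4 and in hypothalamic spots, Efnb3 in white matter, and Slit1 in hypothalamic spots where Robo2 is low.

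Slit1 was highest of the 11 areas in hypothalamic spots, at 218, 217, 213 and 237 CPM against 69.6, 64, 86.2 and 69.3 CPM. The hypothalamic values of the 4 sets were close to each other, and every striatal value given above was under 20 CPM. In layer 4 Slit1 was at 31.1, 34.5, 34.3 and 35.7 CPM, a call that RLE scaling ended. Robo2 was low in hypothalamic spots at 43.6, 27.4, 38.6 and 28.7 CPM against 104, 109.8, 113 and 81.6 CPM. Robo1 was low in layer 4 at 19, 20.4, 23 and 19.6 CPM against 54.5, 65.6, 52.3 and 54.3 CPM. Robo3, best known for the crossing of the midline by hindbrain axons, was highest in cortical spots. It was at 70.9, 60.1, 89.1 and 68.6 CPM in layer 2/3 against 23.1, 22.6, 27.9 and 20.5 CPM, and at 78.4, 53.2, 70.4 and 57.8 CPM in layer 4. In hypothalamic spots it had 3, 4, 4 and 3 counts, or 0.281, 0.557, 0.38 and 0.404 CPM, and the highest upper limit of the ratio over the 4 sets was 0.048. White matter had 2.87, 3.57, 3.06 and 2.36 CPM and cholinergic spots 6.53, 2.63, 4.44 and 2.87 CPM. In Ccdc153 spots Robo3 had 1, 0 and 2 counts in sets 1 to 3 but 70 counts in set 4, where 2 of 82 spots held at least a share of 0.5 of them.

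Netrins and their receptors were spread over areas. Ntn1 (netrin 1) was highest of the 11 areas in cholinergic spots, at 30.2, 49.4, 39.8 and 35.5 CPM against 13.8, 17.7, 14.1 and 16.5 CPM, and was the only member higher there, where 0.624% of genes were higher, while 2 members were lower, where 2.32% were. That call ended with areas from Leiden clusters. In layer 4 Ntn1 was at 6.84, 9.1, 5.59 and 8.79 CPM, a call that TMM and RLE scaling ended. Ntn5, a short netrin, was a cortical gene. Its levels were 8.5, 14.1, 11.8 and 26.5 CPM in layer 2/3, 14, 20.6, 10.3 and 35.7 CPM in layer 4 and 11.9, 15.3, 14.6 and 26.1 CPM in Rprm spots. All 3 areas were at least 2.4 times the other spots in every set, while striatal spots had 12, 23, 22 and 4 counts, or 0.417, 0.993, 0.683 and 0.396 CPM. In hypothalamic spots it had 0, 3, 6 and 8 counts, and a count of 0 allows up to 0.281 CPM in set 1. Cholinergic spots had 2, 2, 3 and 1 counts, with an upper limit of the ratio of 0.458 in set 1. Ccdc153 spots had 1, 1, 1 and 5 counts, and there the upper limit of the ratio reached 0.719, so counting error alone does not hold all sets under the limit of 0.5.

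Unc5d was high in layer 4 at 112, 73.8, 100.4 and 75.4 CPM against 33.7, 28.8, 41.3 and 31.4 CPM and in hypothalamic spots at 83.1, 77.5, 121 and 71.4 CPM against 35.2, 27.9, 41.3 and 30.8 CPM. In Rprm spots it was at 19, 10.7, 15.8 and 17.4 CPM, a call that TMM and RLE scaling ended. Unc5d had its lowest level of the 11 areas in striatal spots in every set. Unc5b was low in layer 2/3 at 6.88, 8.34, 5.52 and 10.5 CPM, and in Fezf2 spots at 12.2, 13, 10.9 and 18.2 CPM until TMM or RLE scaling was used.

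Meningeal spots had 4 higher members, or 5.8%, close to the 4.28% of all genes that were higher there, and 0 lower ones, where 0.791% were. Endothelial and mural markers were 2.83 to 5.02 times, astrocyte markers 2.13 to 2.78 times and microglia markers 1.86 to 2.20 times the level elsewhere in these spots, and their part in the result was not tested. Sema3g, a secreted semaphorin of arterial endothelium, was at 13.6, 34.3, 23 and 42.6 CPM against 3.39, 6.35, 4.17 and 5.29 CPM. Ephb4, the receptor of venous endothelium for Efnb2, was at 9.38, 24.8, 9.12 and 27.4 CPM against 3.55, 3.45, 3.13 and 3.41 CPM. Sema3b was at 10.8, 9.43, 6.08 and 12.2 CPM against 3.44, 0.585, 2.5 and 1.02 CPM, on 23, 19, 14 and 8 counts. Epha2 was at 4.69, 7.45, 4.34 and 18.3 CPM against 2.29, 2.6, 1.66 and 3.17 CPM, on 10 to 15 counts, and was not called with a wider margin or with TMM or RLE scaling. By point values alone, set 2 and set 4 had the higher meningeal levels of Sema3g, Ephb4 and Epha2. The share of all genes with this order of sets was not counted. Over whole sections the endothelial and mural markers summed to 184, 267, 159 and 276 CPM in sets 1 to 4, and their part was not tested.

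In Ccdc153 spots, 2 members were higher, or 2.9%, below the 7.96% of all genes, and 3 were lower, where 2.13% were. Plxnb2, a plexin for class 4 semaphorins, was at 183, 199.9, 173 and 181 CPM against 50.8, 48.9, 53 and 49.4 CPM. Efna4 (ephrin-A4) was at 6.25, 6.45, 6.67 and 8.52 CPM against 1.01, 1.16, 1.01 and 1.04 CPM, on 8 to 20 counts. Both had ratios over 3 in every set. Choroid plexus markers in these spots were at 1.06 to 6.06 times the level elsewhere. The hypothalamus list was at 4.07 to 5.29 times, the lateral septum list at 1.67 to 2.72 times and the meningeal list at 1.27 to 3.07 times. The part of these tissues was not tested. In the choroid plexus spots themselves, which only sets 1 and 3 held in number, Plxnb2 was at 289 and 262 CPM, Efna4 at 8.0 and 9.11 CPM and Sema3b at 61 and 56.2 CPM. Sema3b in choroid plexus had ratios of 43.7 to 71.9, the largest of any member in any area. Outside those borders it was sparse, with 12, 6, 15 and 2 striatal counts, 0.417, 0.259, 0.466 and 0.198 CPM, and it was called lower in layer 2/3 on 5, 6, 1 and 5 counts, in Fezf2 spots on 4, 2, 12 and 3, and in Rprm spots on 10, 3, 14 and 0. A count of 0 allows up to 0.543 CPM there. The striatal call ended with areas from Leiden clusters. The layer 2/3 call ended with areas from Leiden clusters, a wider margin, TMM and RLE scaling and both other ways of scoring markers. The Rprm call ended with a wider margin, thinned counts and both other ways of scoring markers.

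Further areas lay in fewer than 3 sets, so no member was called in them. In Zic1 spots (from a lateral septum list), which sets 2 and 3 held in number, Nrp2 was at 149.7 and 348 CPM and Slit1 at 223 and 435 CPM, both higher in set 3. Epha3 differed between these sets, at 7.1 and 103 CPM in sets 2 and 3, and in set 3 its 1046 counts were spread over 180 of 225 spots. In thalamic spots of sets 1 and 4, Epha8 was at 31.2 and 69.7 CPM, above its striatal level in the same sets, Sema4g was at 69 and 97.2 CPM and Epha1 at 8.72 and 6.27 CPM. C1ql2 spots (from a hippocampal list) also go by a gene name, although 3 markers of that list were among their 10 leading genes. In C1ql2 spots of sets 1 and 4, Ntn1 was at 36.9 and 50.9 CPM.

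The 21 members called in no area were Sema3a, Sema4b, Sema4c, Sema4d, Sema4f, Sema6b, Sema6d, Plxna2, Plxna4, Plxnb1, Epha1, Epha3, Ephb1, Efna2, Efna3, Efnb1, Slit2, Robo4, Ntn3, Ntn4 and Unc5c. Several were close to the limit. Ephb1 in white matter had ratios of 1.89 to 2.25 and Sema6d there 1.71 to 2.55. Plxnb1, the receptor for Sema4d, had 1.87 to 2.47 in Ccdc153 spots, and Robo4, the endothelial Robo, 1.73 to 3.0 in meningeal spots. Slit2 was low in striatal spots, with ratios of 0.162 to 0.505, and failed the limit in 1 set. Plxna2, a receptor of Sema6a, had ratios of 1.71 to 1.95 in Rprm spots, its highest, and 0.437 to 0.596 in white matter. Plxna4, the other receptor, had 1.35 to 1.56 in layer 4. By the median over sets, Sema6b had the smallest top ratio of the 69 members over the 11 areas, 1.17 to 1.27 in layer 6b and claustrum.

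Between the barcode sets the members differed about as much as other genes did. Over whole sections, 9 of 69, or 13%, were at least 2-fold apart between the highest and the lowest set on the scale of CPM + 1, where 11.9% of genes were. The median fold was 1.48 for the members and 1.42 for all genes. Within striatal spots 9 of 64 members with at least 1 CPM there were apart, or 14.1%, where 11.3% of genes were, with medians of 1.51 and 1.42. The whole-section count was 6, 8, 4 and 5 without sets 1 to 4 in turn. Plxnd1 was at 52.6, 131, 51.2 and 124 CPM in striatal spots of sets 1 to 4. Epha6 was at 94.3, 44, 89.7 and 47.2 CPM. Sema5b was at 12.8, 18.3, 6.74 and 22.3 CPM. Plxnd1 and Sema5b were highest in sets 2 and 4, and Epha6 in sets 1 and 3.

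The other members apart within striatal spots were Sema3a, Sema3d, Nrp1, Epha8, Epha10 and Slit2. Slit2 was at 18.4, 4.66, 12.6 and 13.8 CPM, set 2 being lowest. Nrp1 was at 7.19, 13.7, 5.71 and 8.21 CPM, set 2 being highest. Sema3a, a ligand that binds Nrp1, was at 36.5, 16.8, 23.7 and 14.4 CPM. These genes each had another order of the sets. Epha10 was at 12.4, 9.93, 7.91 and 23 CPM, set 4 being highest as it was for Epha8. Sema3d was at 6.67, 2.29, 2.86 and 1.68 CPM, set 1 being highest. Over whole sections Sema3b, Epha3, Epha7 and Ntn5 were apart as well. Sema3b was at 3.52, 0.748, 2.55 and 1.1 CPM, high in sets 1 and 3, in which the choroid plexus markers summed to 7471 and 6307 CPM against 81.4 and 662 CPM in sets 2 and 4. The part of that tissue was not tested. Epha7 was at 89.1, 61.2, 105 and 47.2 CPM and Ntn5 at 3.75, 6.79, 4.7 and 9.8 CPM. Epha7 was higher in sets 1 and 3 and Ntn5 in sets 2 and 4.

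**Figure D5:**
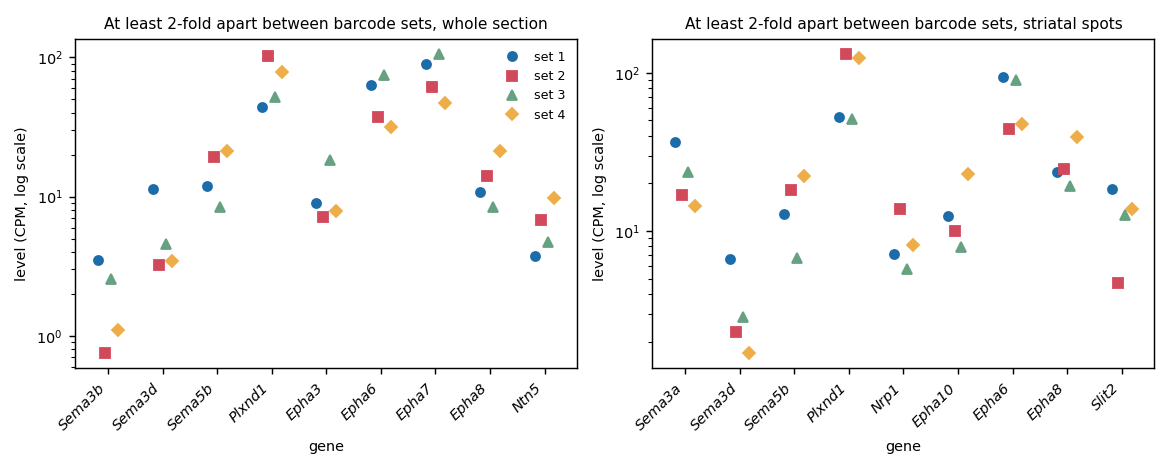
Level in CPM, on a log axis, of the genes at least 2-fold apart between barcode sets on the scale of CPM + 1, over whole sections (left, 9 genes) and in striatal spots (right, 9 genes); each symbol is 1 barcode set. In both panels Plxnd1 and Sema5b are highest in sets 2 and 4, and Epha6 in sets 1 and 3.

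Partner genes of the same pathways, from 5 lists, were counted in the same way, to be read against 23.7% of all genes higher and 20% lower in some area, and 2.93% higher and 8.69% lower in striatal spots. Of 22 semaphorin and plexin partners, 3 were higher and 9 lower in some area, with 8 lower and 0 higher in striatal spots. Fes, a kinase, had ratios of 2.08 to 3.51 in meningeal spots, and Rras, a small GTPase, 1.6 to 3.2. Of 14 tested Eph and ephrin partners, 4 were higher and 5 lower, and Ngef, the exchange factor ephexin that acts downstream of EphA receptors, was the 1 that was higher in striatal spots, where 0 were lower. It was at 1684, 1403, 1629 and 1246 CPM there, with ratios of 2.53 to 3.33. Chn2 was highest in white matter, with ratios of 2.32 to 2.99. Of 12 Slit and Robo partners, 3 were higher and 4 lower in some area, Srgap1 being higher and Pak1 lower in striatal spots. The largest ratios of that list were in Ccdc153 spots, 8.11 to 43.2 for Prrg4 and 15.3 to 25.0 for Cxcr4. Of 14 netrin and Dcc partners, 4 were higher and 4 lower, with 1 higher and 3 lower in striatal spots. Draxin, which binds Dcc, had 5.53 to 24.7 in Ccdc153 spots. Of 14 genes of other guidance systems, 4 were higher and 4 lower, with 0 higher and 3 lower in striatal spots. Boc, a receptor for Shh, was at 50.3, 71.9, 67.8 and 85.2 CPM in layer 4, with ratios of 4.86 to 6.10, and Cntn2 in white matter had 3.44 to 4.58.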

How the data were processed

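Visium CytAssist counts for FFPE tissue, version 2 of the assay, were measured in sections of 4 mice, per the labels' protocols. The values are raw counts per gene and spot, in 1 table deposited by the authors. Space Ranger and Seurat were used, per the submitters' processing notes, with versions not given there. Neither the genome build nor the probes or spot filters used are given in the sources used here. Probes read part of a transcript, and spots over tissue could not be told from others in the table, since no image or coordinates were used here. The 12602 columns of spots carry no sample, so samples were not compared.

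Spots under 500 counts were left out, which removed 1. Counts per 10000 were log-transformed, each marker was standardised over spots, and a spot took the area of its highest mean score where this was at least 0.5 SD and 0.2 SD above the next. Spots without an area stayed among the other spots. Areas with at least 30 spots in at least 3 sets were called. Summed counts were turned into CPM. Intervals are exact Poisson for levels and exact conditional binomial for ratios, at 95%, and the floor for a count of 0 is 3 counts. No test was run, since no replicates are known. Comparisons took genes whose mean over sets was 1 CPM or more, with a 2-fold limit.

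Values in every set are given for members called in an area, for the member of each family with the largest area ratio, for members apart between sets in striatal spots, and for their receptors and ligands where these are members. Other members are given by ranges. For partner genes, counts are given with the largest ratios. 1 partner gene is not reported here by name. The members, the gene lists and the areas were chosen with earlier results of these data known.

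The alternatives were areas from Leiden clusters (2000 variable genes, 30 components, 15 neighbours, resolution 0.8), a wider margin of 0.5 SD, no filter on genes, a mean of at least 10 CPM, at least 2000 counts per spot, TMM and RLE scaling, counts thinned to the smallest library, limits of 1.5-fold and 3-fold, and each set left out in turn. Marker scores standardised within sets or scaled to a like spread were added after the data were seen. The calling step was tested on simulated data for striatal against other spots. With 200 of 19465 genes changed 4-fold, 98.5% were found and 0 unchanged genes were called. The simulated counts were Poisson draws from the whole-section profile of each set, with no other area differences and no misplaced spots. The run is therefore a check of the calculation and not of the area calls in the data. Tools were Python 3.11.15, numpy 2.4.6, scipy 1.17.1, pandas 2.3.3, scanpy 1.11.5, leidenalg 0.10.2, matplotlib 3.10.9, and edgeR 4.0.16 in R 4.3.3 for the scaling factors.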

Additional observations from a re-analysis of the deposited data

Results flagged for a closer look

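In 133 levels of members, over whole sections and in striatal spots, 12 had 1 barcode set far from the other 3 by Dixon's ratio. Chance passes this check in about 1 in 20 cases. The check was not run on all genes, so the count of 12 does not set the members apart. Over whole sections, Sema3d was at 11.4 CPM in set 1, Sema3e at 38.9 CPM and Sema6d at 87.9 CPM in set 1, where the other sets were at most 4.56, 28.1 and 70.2 CPM. Set 1 had the highest summed level of the white matter markers, 11677 CPM against 4990, 6007 and 6955 CPM. In white matter spots the ratios were 3.72 to 5.21 for Sema3d, 1.71 to 2.55 for Sema6d and 0.653 to 1.41 for Sema3e. The part of white matter in these levels was not tested. Set 4 was highest for Sema4g at 42.8 CPM and for Plxnc1 at 62.8 CPM, where the other sets were at most 27.6 and 36.9 CPM. Epha3 was at 18.4 CPM in set 3, against 9.03 CPM in the next set, and Zic1 spots of set 3 held 1046 of its counts. Slit3 was at 74.2 CPM in set 2, against 51.0 CPM in the next.

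Within striatal spots, set 2 was highest for the receptors Ephb1 at 156 CPM and Robo1 at 88.1 CPM, and lowest for Unc5d at 5.57 CPM, where the other sets had at least 10.1 CPM. Set 4 was lowest for Robo2 at 119.9 CPM, where the others had at least 168 CPM, and highest for Ntn1 at 19.98 CPM, where the others had at most 15.8 CPM.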

How the results depend on the processing

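No paired analysis was possible because no barcode set could be tied to a replicate number. The count of members higher in an area, 26 as reported, was 49 at a 1.5-fold limit and 8 at a 3-fold limit, and 28 to 30 with a set left out. The count lower in an area, 39, was 18 at a 3-fold limit and 41 to 44 with a set left out. Members apart over whole sections, 9, were 33 at 1.5-fold and 0 at 3-fold, and 4 to 8 with a set left out. In striatal spots the 9 apart were 33 at 1.5-fold, 2 at 3-fold and 6 to 7 with a set left out. With a set left out, area calls have fewer sets to pass, and the fold between the highest and lowest set can only shrink. No Leiden cluster was given to the Fezf2 or the Ccdc153 area, so calls there have no value by that way. Areas from Leiden clusters turned 2 of the other pairs of a member and an area, both in layer 6b and claustrum, Plxnd1 to a median log2 ratio of 1.05 and Epha6 to 0.78, and the cause was not tested. Of the 99 pairs, 57 were called under every setting run for them other than the changed limits. By Leiden clusters, layer 4 had 133, 134, 184 and 0 spots in sets 1 to 4, and Rprm had 245, 258, 296 and 2. With that setting, calls in layer 4 and Rprm spots therefore used sets 1 to 3 only. Of 8987 spots with an area by both ways, 79.2% had the same one. Low counts limit Ntn5, Sema3b, Ephb2, Epha2 and Efna4.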

Other observations

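Plxnd1, Sema5b and Epha6 had levels with barcode sets 1 and 3 on one side and sets 2 and 4 on the other. This held in whole sections and in striatal spots. Other members, such as Sema3a, Sema4a and Sema4f, split in this way over whole sections too. The share of all genes that do so was not counted, so the split sets no member apart. Over whole sections Plxnd1 was at 43.9 and 51.7 CPM in sets 1 and 3 and at 102.7 and 78.3 CPM in sets 2 and 4. Sema5b was at 11.9 and 8.40 CPM against 19.2 and 21.2 CPM, and Epha6 at 63.2 and 74.1 CPM against 37.4 and 31.5 CPM. Sets 1 and 3 were also those with the larger total counts. No set is tied to a mouse, so the genotypes behind these values are not known here.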
